A study of Mus musculus with 10 samples.

Results

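The cytoplasmic ribosomal protein genes were followed across 10 Affymetrix Mouse Gene 1.0 ST arrays of splenic mouse B cells. Members were all probe sets that carried exactly 1 gene symbol and whose symbol began with Rpl (large subunit) or Rps (small subunit), without S6 kinases, pseudogenes and ribosomal-like paralogs. This gave 185 probe sets of 54 genes, out of 21640 probe sets with exactly 1 symbol and 34760 in the whole table. Of these, 115 probe sets of 33 genes belonged to the large subunit and 70 probe sets of 21 genes to the small subunit. Rps19bp1, a protein that binds a ribosomal protein, and Rps23rg1, a retrogene, matched the letters of the rule and were kept apart, with floxed minus wild-type log2 changes of -0.0068 and -0.039. A further 205 probe sets carried a ribosomal symbol together with another symbol and were not counted. On such probe sets alone stood 18 symbols that matched the letters of the rule, among them Rpl3, Rpl11, Rpl32, Rps16 and Rps24. The 18 include Rpl37rt and Rps27rt, which are retrotransposed copies.

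The cells were sorted as B220+CD22+ from the spleens of CBAxC57BL/6J mice. The delta group (4 arrays) was labelled Sca1-Bcl6(Δ) and came from the floxed transgenic mice bred to mb1-Cre mice, in which Cre is driven from the gene of the B cell receptor component Cd79a. The floxed group (3 arrays) was labelled Sca1-Bcl6(floxed) and carried a loxP-flanked cassette of mouse Bcl6, an internal ribosome entry site and eGFP, placed in a Ly6 (Sca1) vector and injected into fertilised eggs. The wild-type group (3 arrays) is labelled with no transgene. The study made independent transgenic lines, and the labels give neither line, age nor sex, nor whether each array is a separate animal, so the p-values measure the spread between these samples.

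The cytoplasmic ribosome is built of a small subunit, which binds and reads mRNA, and a large subunit, which joins amino acids and releases the chain through an exit tunnel. Its proteins are needed in near-equal amounts, and their mRNAs are among the most abundant in lymphocytes. Most of these mRNAs begin with a C and a run of pyrimidines, the 5′ terminal oligopyrimidine (TOP) tract, through which mTOR and Larp1 control their translation. Bcl6, the transgene, is a transcriptional repressor of germinal centre B cells.

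Because this tract is the sequence feature that the family shares, the bases around the annotated transcription start were read from RefSeq on build GRCm38.p6, in windows of 30 bases with 15 on either side of the start. Windows were matched for 43 of the 54 genes, at 50 starts. At 9 starts, the first transcribed base was a C followed by at least 4 letters that were each C or T, on the strand of the gene, which is 18.0% of these starts against 2.51% of all 32851 starts in the table. A start within 5 bases of such a run was found at 18 of the 50, or 36.0%, against 18.3% of all starts. The 9 windows are printed 5′ to 3′ with the whole pyrimidine run from the annotated start in capitals. It ran over 5 to 10 bases.
Rpl14 at chr9:120571502-120571531, plus strand: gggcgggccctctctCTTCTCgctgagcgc
Rpl28 at chr7:4792950-4792979, plus strand: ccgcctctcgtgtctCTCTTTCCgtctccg
Rpl38 at chr11:114668565-114668594, plus strand: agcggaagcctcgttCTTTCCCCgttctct
Rplp2 at chr7:141447636-141447665, plus strand: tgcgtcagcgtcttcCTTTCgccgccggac
Rps6 at chr4:86857353-86857382, minus strand: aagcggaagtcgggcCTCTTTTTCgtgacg
Rps10 at chr17:27635230-27635259, minus strand: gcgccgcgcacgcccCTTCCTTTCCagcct
Rps15a at chr7:118116133-118116162, minus strand: ctctctttctgccatCTTCCCTCgccggtg
Rps18 at chr17:33955651-33955680, minus strand: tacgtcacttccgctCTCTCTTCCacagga
Rps21 at chr2:180257364-180257393, plus strand: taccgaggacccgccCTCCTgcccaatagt

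The arrays were alike in overall signal, with a median intensity of 139 to 145 on each and correlations of log2 values of 0.993 to 0.997 between arrays of a group and 0.989 to 0.996 between groups. The 9 measured markers of B cell identity, among them Cd22, Ptprc (which encodes B220), Cd79a and Pax5, had a mean log2 level of 12.87 to 13.01 on each array. Cd79a itself was lower on every delta array (12.88, 12.87, 12.89 and 12.82) than on the floxed (13.25, 13.21 and 13.35) and wild-type arrays (13.39, 13.36 and 13.29). Of the lists of other cell types, the T cell, NK cell, myeloid and erythroid lists varied most among floxed arrays, and the plasmacytoid dendritic cell list among wild-type arrays. The median deviation of 14 T cell genes was 0.45, -0.095 and 0.22 on floxed 1 to 3, and that of 10 erythroid genes 0.42, 0.17 and 0.013. Set against Xist, the Y-linked genes Kdm5d, Uty and Eif2s3y gave a male pattern on 1 delta array (delta 1), 3 floxed arrays and 0 wild-type arrays. In floxed against wild-type the sex of the mice and the transgene therefore cannot be told apart. Delta against floxed shares much of this limit, because delta 1 was the only delta array of male pattern. In sorted cells measured in bulk, fewer cells of a type and less RNA per cell cannot be told apart either.

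Ribosomal protein probe sets lay at the top of the signal range. Their log2 levels, averaged over the 10 arrays, ran from 3.07 to 14.13 with a median of 11.33, against a median of 7.21 over all probe sets with 1 symbol. Of the 217 probe sets above the 99th percentile of the level (log2 12.13), 63 were members, as were 33 of the 100 brightest. The brightest probe set of each gene lay between 7.19 and 14.13. None of the 54 lay below the array median, which was 7.15 over all 34760 probe sets of the table. The highest was Rps6 10424823, for the protein whose phosphorylation is the standard readout of S6 kinase activity, with 14.07, 14.52, 14.12 and 14.17 on the delta arrays, 14.04, 14.03 and 14.11 on the floxed arrays, and 14.07, 14.11 and 14.07 on the wild-type arrays. These groups overlapped, and delta 2 was the highest array.

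The 37 genes with several probe sets had up to 10 of them (Rpl23a), and probe sets of a gene often lay far apart in signal. The 7 Rps12 probe sets ran from a mean log2 level of 3.60 (Rps12 10475435) upward, and 8 members in all lay below the array median. The mouse genome holds many processed copies of ribosomal protein genes, and whether a given probe set reads the parent gene, a copy or both was not tested. Between arrays of a group the median SD was 0.117 log2 units over all members and 0.097 over the brightest probe set of each gene, against 0.106 over all probe sets.

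Floxed B cells had slightly more ribosomal protein signal than wild-type B cells, and 2 of 185 probe sets, Rpsa 10385034 and Rps12 10475435, passed an adjusted p of 0.05 in limma with Benjamini-Hochberg adjustment over 21640 probe sets. Both rose. That is 1.08% of the members, against 0.652% of all probe sets in either direction and 0.49% higher. At an unadjusted p under 0.05 the count was 22 members, or 11.9%, against 12.8% of all probe sets, with 20 higher in floxed (10.8%, against 6.34%) and 2 lower (1.08%, against 6.48%). The direction was more uniform than the calls: 161 members (87.0%) had a log2 change above 0, against 42.5% of all probe sets. The median log2 change was 0.108 (1.08-fold), against -0.023 over all probe sets, with 0.092 for the large subunit, 0.113 for the small subunit and 0.083 over the brightest probe set of each gene.

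Changes were small for nearly every gene. In floxed against wild-type, 149 of 185 log2 changes lay within 0.2 of 0, that is within 1.15-fold. For 51 of the 54 brightest probe sets, the 95% confidence interval of the floxed minus wild-type log2 change lay wholly within 0.5 of 0. Groups did not overlap, with every floxed array higher, for 15 members (8.11%, against 7.8% of all probe sets), and with every floxed array lower for 3 (1.62%, against 8.97%).

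**Figure D1:**
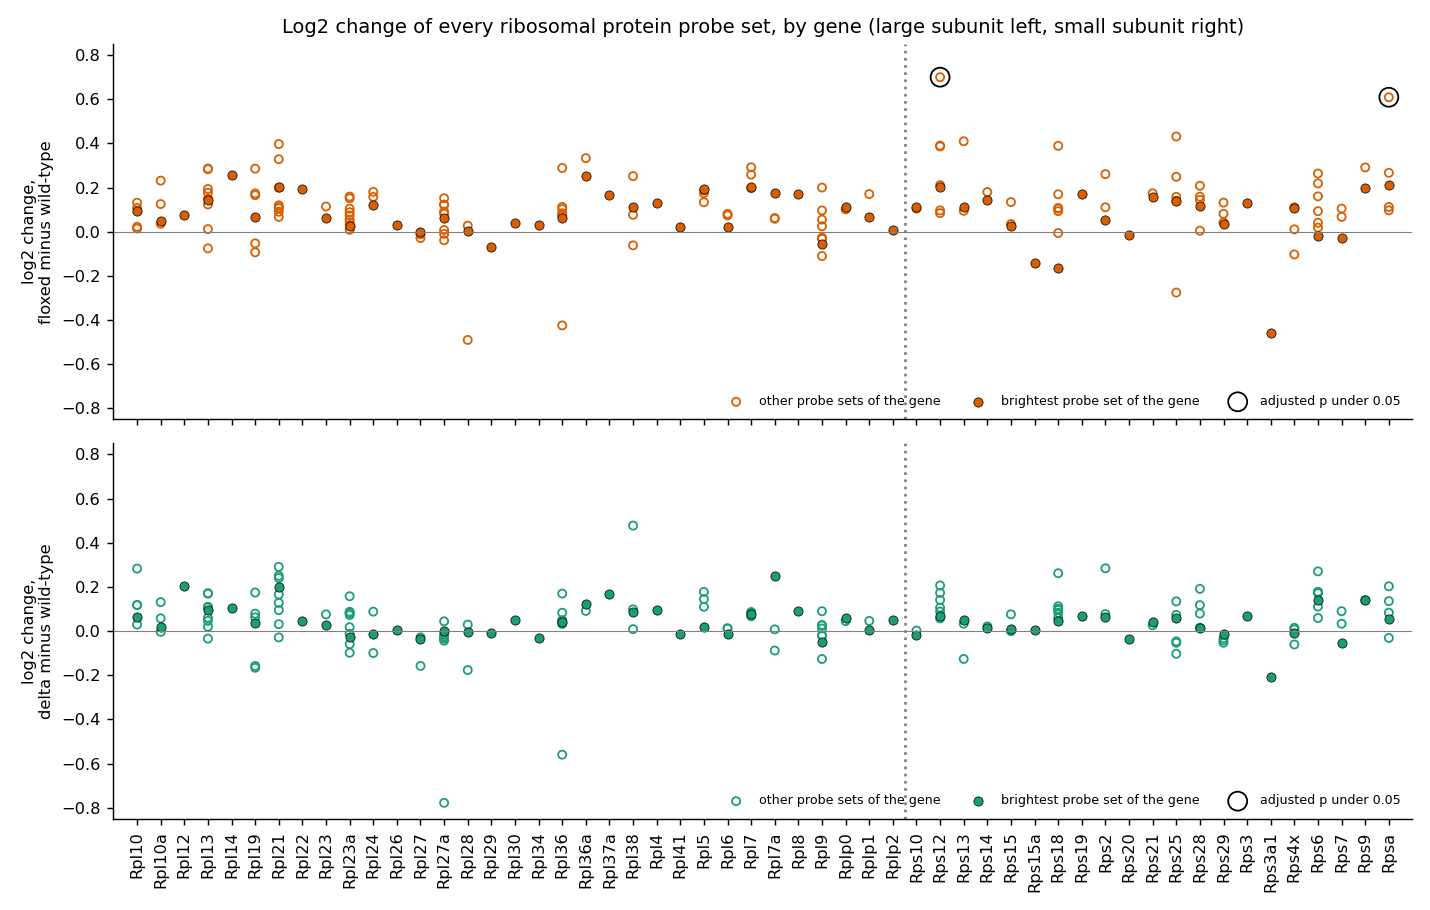
Log2 change of each of the 185 ribosomal protein probe sets, floxed minus wild-type in the upper panel and delta minus wild-type in the lower panel, by gene, with large subunit genes to the left of the dotted line and small subunit genes to the right. Filled points are the brightest probe set of a gene, open points its other probe sets, and rings mark the 2 with an adjusted p under 0.05, Rpsa and Rps12 in floxed against wild-type. Most points lie just above 0 in both panels, 161 in the upper and 136 in the lower.

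Delta B cells lay between in the median change with all arrays in the fit. No ribosomal protein probe set passed the threshold against wild-type: 0 of 185 with limma, where 0 of 21640 probe sets (0.0%) were called. At an unadjusted p under 0.05 there were 10 members (5.41%, against 8.11% of all probe sets), of which 10 were higher in delta (against 3.74%) and 0 lower (against 4.37%). A log2 change above 0 was found for 136 members (73.5%, against 43.9%), with a median of 0.049 (1.03-fold) against -0.013 over all probe sets. The large subunit had a median of 0.046 and the small subunit 0.060. All 4 delta arrays lay above all 3 wild-type arrays for 6 members (3.24%, against 4.01%), which were Rpl7a 10453632, 2 of the Rpl21 probe sets and 3 of the Rps6 probe sets, and for 0 members did they lie below (against 5.45%). The 95% confidence interval of delta minus wild-type lay within 0.5 of 0 for 53 of the 54 brightest probe sets. Both comparisons against wild-type use the same 3 wild-type arrays. Without wild-type 2 the median delta minus wild-type log2 change fell below 0.

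Delta B cells were slightly below floxed B cells. No member passed the threshold (0 of 185, against 0.00462% of all probe sets, which is 1 probe set), and 9 had an unadjusted p under 0.05 (4.86%, against 6.32%), with 1 higher in delta (0.541%, against 3.09%) and 8 lower (4.32%, against 3.23%). The log2 change was above 0 for 44 members (23.8%, against 51.8%), and the median was -0.056 (0.96-fold) against 0.0039 over all probe sets. All 4 delta arrays lay below all 3 floxed arrays for 24 members (13.0%, against 3.66%), and above for 3 (1.62%, against 3.26%). Among the brightest probe sets, every delta array lay below every floxed array for 9 of 54 genes (16.7%), and above for 0. The 9 were Rpl7, Rpl22, Rpl24, Rpl36a, Rps4x, Rps10, Rps13, Rps14 and Rpsa. Rpl24 10386187, for a protein at the bridge between the subunits, shows how narrow such gaps were, with 11.56, 11.61, 11.54 and 11.58 on the delta arrays and 11.82, 11.66 and 11.63 on the floxed arrays, while the wild-type arrays, at 11.52, 11.44 and 11.80, spanned both.

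The order of the 3 group means was floxed above delta above wild-type for 101 of 185 members (54.6%, against 18.6% of all probe sets) and for 31 of the 54 brightest probe sets. The spread between wild-type arrays was as wide as this shift. The median deviation of the 185 members from their mean over 10 arrays was -0.018, 0.025, 0.046 and -0.047 on delta 1 to 4, 0.069, 0.044 and 0.033 on floxed 1 to 3, and -0.062, -0.167 and 0.092 on wild-type 1 to 3. These medians had an SD of 0.042 among delta arrays, 0.018 among floxed arrays and 0.130 among wild-type arrays. Wild-type 2 was the lowest array and wild-type 3 the highest of all 10.

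Single genes followed the same arrays. Wild-type 2 was the lowest of the 10 arrays for 104 members (56.2%, against 11.4% of all probe sets), and wild-type 3 the highest for 56 (30.3%, against 14.5%). Without wild-type 2 the median floxed minus wild-type log2 change was 0.049 and the median delta minus wild-type log2 change was -0.011. Without wild-type 3 these medians were 0.161 and 0.111. Delta against floxed does not rest on wild-type arrays, and its median ran from -0.074 without delta 3 to -0.033 without delta 4. It does set delta arrays of which only delta 1 was of male pattern against floxed arrays that all were.

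**Figure D2:**
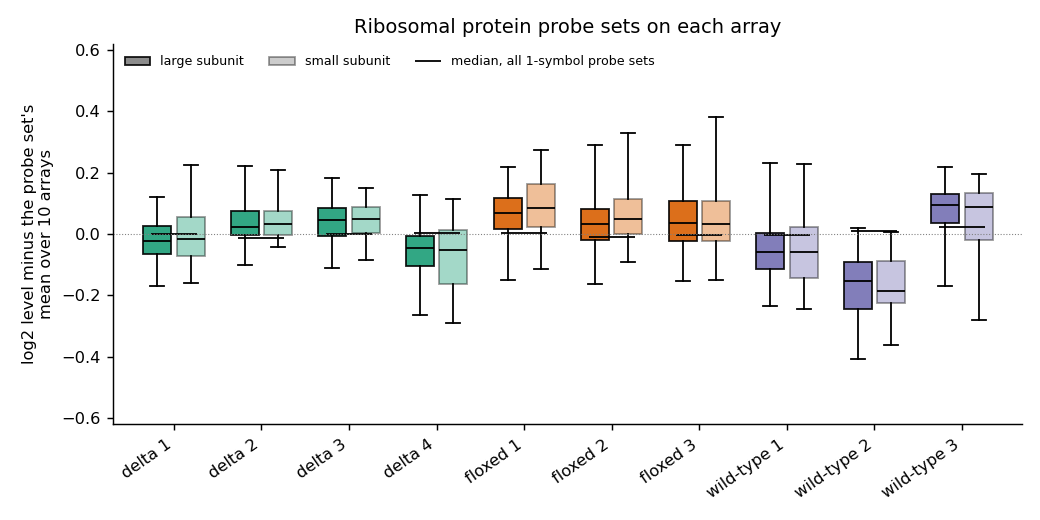
Box plots (quartiles and median, whiskers from the 5th to the 95th percentile, points beyond not drawn) of the log2 deviation of each ribosomal protein probe set from its own mean over the 10 arrays, on each array, for the 115 large subunit probe sets (darker) and the 70 small subunit probe sets (lighter), with a dash at the median of all probe sets with 1 symbol. The members sit low on wild-type 2 (median -0.167) and high on wild-type 3 (0.092), with the delta and floxed arrays between.

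**Figure D3:**
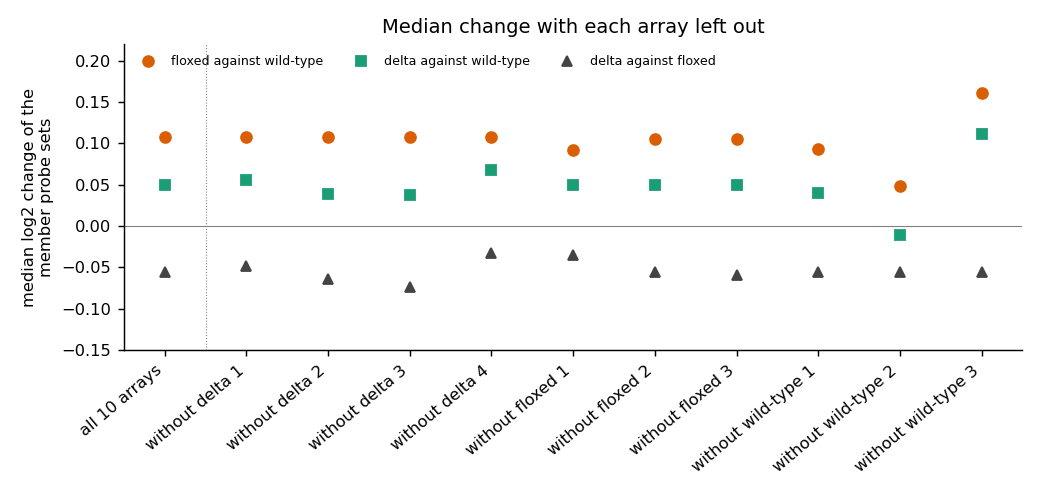
Median log2 change of the 185 probe sets in each of the 3 comparisons with all 10 arrays and with each array left out in turn. Delta minus wild-type crosses 0 without wild-type 2 (-0.011), while floxed minus wild-type stays above 0 and delta minus floxed stays below 0 in each of these fits.

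Within the large subunit, the stalk that recruits elongation factors (Rplp0, Rplp1, Rplp2 and Rpl12, 6 probe sets) had a median floxed minus wild-type log2 change of 0.088, with 6 of 6 above 0 and 0 past the threshold. Of all members, 87.0% were above 0 in this comparison, so a short list wholly above 0 does not stand out. The delta minus wild-type median of the stalk was 0.048. Rplp0 10524718, the base of the stalk, had 13.77, 13.80, 13.73 and 13.75 on the delta arrays, 13.77, 13.81 and 13.86 on the floxed arrays, and 13.64, 13.64 and 13.82 on the wild-type arrays. Wild-type 1 and 2 lay below all other arrays for it, and wild-type 3 lay among them. Rpl12 10471550 and Rplp2 10558914 had the larger log2 change in delta minus wild-type, 0.20 (SE 0.089, limma adjusted p = 0.6) and 0.050, where floxed minus wild-type was 0.074 and 0.0098.

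Rpl5, which with Rpl11 carries 5S rRNA into the ribosome and can bind Mdm2, had 4 probe sets with a median floxed minus wild-type log2 change of 0.181, all of them above 0 and none past the threshold. Rpl5 10344931 had 12.63, 12.85, 12.73 and 12.81 on the delta arrays, 13.00, 12.69 and 13.09 on the floxed arrays, and 12.80, 12.60 and 12.80 on the wild-type arrays, so that floxed 2 lay within the other groups. Proteins around the exit tunnel (Rpl19, Rpl22, Rpl23a and Rpl26, 18 probe sets) had a median of 0.071. Of these, 16 of 18 were above 0, against 87.0% of all members, and 0 were called. Rpl22 10510720, the sole Rpl22 probe set, for a protein whose loss is known to affect lymphocyte development in mice, had 8.61, 8.79, 8.73 and 8.69 on the delta arrays, 8.89, 8.85 and 8.82 on the floxed arrays, and 8.53, 8.63 and 8.81 on the wild-type arrays. Its floxed arrays lay above all others by a small margin (floxed minus wild-type log2 change 0.19, SE 0.079, limma adjusted p = 0.33).

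Rpl7, a protein of the large subunit, had 4 probe sets close together, at floxed minus wild-type log2 changes of 0.20 to 0.29. None passed the threshold with all arrays, and Rpl7 10521593 passed it without wild-type 3 alone (0.39, limma adjusted p = 0.0498). Rpl21 10569996 had the largest floxed minus wild-type log2 change of the large subunit, 0.40 (SE 0.104, limma adjusted p = 0.121). It read 10.96, 11.10, 11.03 and 10.91 on the delta arrays, 11.06, 11.15 and 11.10 on the floxed arrays, and 10.93, 10.46 and 10.73 on the wild-type arrays.

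Rpl28 10518329 had the lowest floxed minus wild-type log2 change of all members. It read 11.29, 11.30, 11.76 and 11.58 on the delta arrays, 11.18, 11.05 and 11.29 on the floxed arrays, and 11.96, 11.50 and 11.52 on the wild-type arrays. Its floxed minus wild-type log2 change of -0.49 (SE 0.148, limma adjusted p = 0.179) stood beside 0.0025 and 0.028 for the 2 brighter Rpl28 probe sets. Of the 5 members with the largest SD over the 10 arrays, Rpl27a, Rpl36 and Rpl38 were of the large subunit, and each turned on few arrays. Rpl27a 10406854 averaged 4.75 ± 1.00 in delta (SD, n = 4), 5.52 ± 0.40 in floxed and 5.53 ± 0.57 in wild-type (SD, n = 3 each), with delta 4 at 3.31. Rpl36 10378783 ran from 6.27 on wild-type 2 to 7.87 on wild-type 1. Rpl38 10509560 was at 10.46 on wild-type 3 and between 11.49 and 12.14 on the other arrays, and its delta minus wild-type log2 change of 0.48 was -0.012 without wild-type 3.

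In the small subunit, proteins at the mRNA entry and the decoding site (Rps2, Rps3, Rps9 and Rps15, 9 probe sets) had a median floxed minus wild-type log2 change of 0.130. Of these, 9 of 9 were above 0, against 87.0% of all members, and 0 passed the threshold. Rps9 10549588, which helps to hold the entering mRNA, had 12.06, 12.14, 12.14 and 12.10 on the delta arrays, 12.25, 12.16 and 12.10 on the floxed arrays, and 11.90, 11.87 and 12.15 on the wild-type arrays. Here too wild-type 3 lay with the transgenic groups. Rps3 10565802, a protein of the entry channel, ran lowest on wild-type 2 (11.86) and between 12.15 and 12.38 on the other arrays.

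Proteins at the mRNA exit (Rpsa, Rps14, Rps21 and Rps28, 14 probe sets) had a median floxed minus wild-type log2 change of 0.159. Of these, 14 of 14 were above 0, against 87.0% of all members, and 1 of them, Rpsa 10385034, rose past the threshold. Rpsa, also known as the laminin receptor, sits on the small subunit near this exit. Rpsa 10385034 had 10.31, 10.12, 9.86 and 9.80 on the delta arrays, 10.42, 10.45 and 10.43 on the floxed arrays, and 9.86, 9.71 and 9.90 on the wild-type arrays. The floxed arrays lay above every other array, and delta 1, the delta array of male pattern, was the highest of the rest. Its floxed minus wild-type log2 change was 0.61 (SE 0.117, limma adjusted p = 0.0464, 1.52-fold). With the sex pattern as a covariate this change was 0.23 (limma adjusted p = 0.815). In that fit the sex term is set by delta 1 against the other delta arrays alone. The value thus rests on 1 array, and an effect of sex was not tested.

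The other 4 Rpsa probe sets moved less, with floxed minus wild-type log2 changes of 0.097 to 0.27. The brightest, Rpsa 10373569, had 12.53, 12.55, 12.56 and 12.44 on the delta arrays, 12.70, 12.66 and 12.66 on the floxed arrays, and 12.40, 12.34 and 12.65 on the wild-type arrays. Its floxed minus wild-type log2 change was 0.21 (SE 0.081, limma adjusted p = 0.301). The floxed arrays were again above all others, with wild-type 3 next to them.

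The second member that rose in floxed cells, Rps12 10475435, was among the dimmest probe sets of the table: 1.25% of the probe sets with 1 symbol lay below it. Rps12 is a protein of the small subunit beak, known in Drosophila for its part in cell competition. This probe set had 3.46, 3.60, 3.52 and 3.41 on the delta arrays, 3.81, 4.06 and 4.20 on the floxed arrays, and 3.03, 3.43 and 3.51 on the wild-type arrays. The floxed arrays were highest (floxed minus wild-type log2 change 0.70, SE 0.129, limma adjusted p = 0.0399, 1.62-fold). The other 6 Rps12 probe sets had log2 changes of 0.084 to 0.39, none past the threshold, and the brightest, Rps12 10606581, had 0.20 (SE 0.098, limma adjusted p = 0.42). It read 12.13, 12.20, 12.23 and 11.94 on the delta arrays, 12.28, 12.29 and 12.21 on the floxed arrays, and 12.10, 11.86 and 12.21 on the wild-type arrays, with wild-type 3 level with floxed 3.

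**Figure D4:**
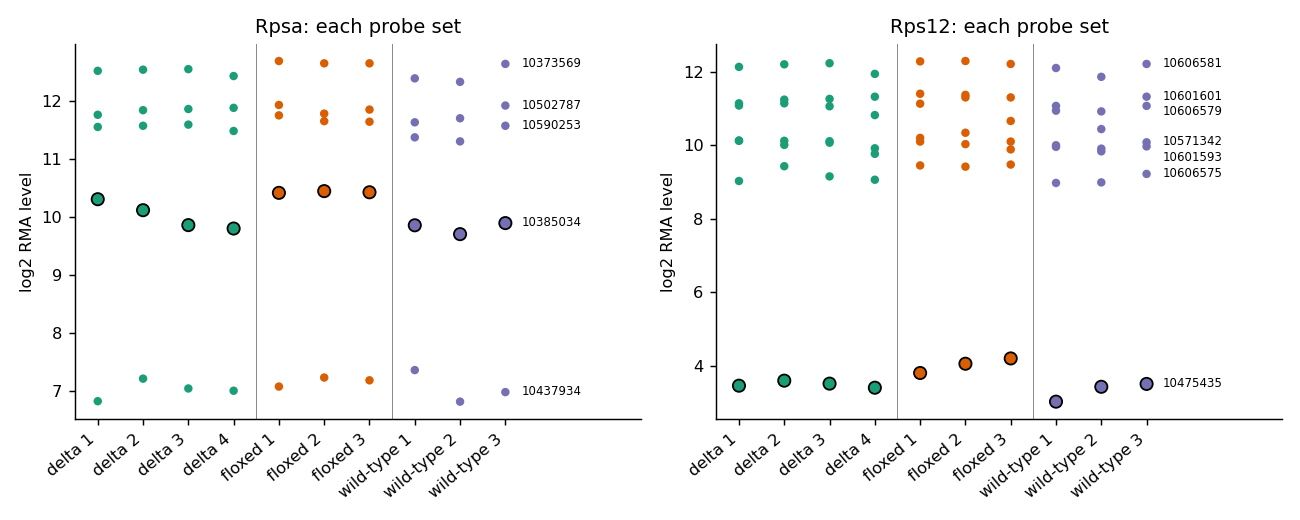
Log2 RMA level of each probe set of Rpsa (left) and Rps12 (right) on each array, delta in green, floxed in orange and wild-type in purple, with the probe set number beside its points. Larger outlined points are the probe sets past the threshold in floxed against wild-type, Rpsa 10385034 at 10.42 to 10.45 on the floxed arrays and Rps12 10475435 at 3.81 to 4.20.

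In 6 of the 7 Rps6 probe sets the delta minus wild-type log2 change was above the floxed minus wild-type one. Rps6 10514233 had 13.02, 12.97, 13.02 and 12.94 on the delta arrays, 12.87, 12.94 and 13.00 on the floxed arrays, and 13.01, 12.53 and 12.61 on the wild-type arrays. Wild-type 1 lay with the other groups and wild-type 2 and 3 lay below (delta minus wild-type log2 change 0.27, SE 0.100, limma adjusted p = 0.49). Rps6 10421571 had every delta array above every other array, at 13.66, 13.71, 13.67 and 13.75, against 13.57, 13.62 and 13.64 on the floxed arrays and 13.62, 13.41 and 13.53 on the wild-type arrays. All 7 Rps6 probe sets had a delta minus wild-type log2 change above 0, from 0.059 to 0.27, and none passed the threshold.

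Rps25, needed for translation from some internal ribosome entry sites, showed probe sets that opposed each other. Rps25 10398451 had 7.61, 7.66, 7.31 and 6.90 on the delta arrays, 7.77, 7.86 and 7.93 on the floxed arrays, and 7.25, 7.33 and 7.69 on the wild-type arrays (floxed minus wild-type log2 change 0.43, SE 0.178, limma adjusted p = 0.334). Rps25 10534964 had 9.71, 9.79, 9.90 and 9.90 on the delta arrays, 9.78, 9.50 and 9.69 on the floxed arrays, and 9.90, 10.05 and 9.84 on the wild-type arrays (-0.28, SE 0.090, limma adjusted p = 0.218). The brightest Rps25 probe set lay between these, at 0.14. Neither direction passed the test.

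Rps13, Rps3a1, Rps18 and Rps2 each had a probe set that varied more between arrays of a group than between groups. Rps13 10565434 averaged 10.26 ± 0.77 in delta (SD, n = 4), 10.79 ± 0.05 in floxed and 10.38 ± 0.75 in wild-type (SD, n = 3 each), with delta 2, delta 4 and wild-type 3 at 9.73, 9.50 and 9.52. Rps3a1 10407120, the sole probe set of a protein of the small subunit platform, averaged 10.99 ± 0.34 in delta, 10.74 ± 0.52 in floxed and 11.20 ± 0.08 in wild-type, and its floxed minus wild-type log2 change of -0.46 (SE 0.238, limma adjusted p = 0.454) stood with floxed 1 and 3 at 10.29 and 10.62 and floxed 2 at 11.31. Rps18 10411393 averaged 13.62 ± 0.24, 13.42 ± 0.25 and 13.58 ± 0.42 in delta, floxed and wild-type. Rps2 10442580 averaged 12.87 ± 0.17, 12.85 ± 0.10 and 12.59 ± 0.41 in the same groups, with wild-type 3 lowest at 12.21, against the general run of that array.

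Probe sets of 1 gene differed in sign in floxed against wild-type for 13 genes, which were Rpl9, Rpl13, Rpl19, Rpl27, Rpl27a, Rpl28, Rpl36, Rpl38, Rps4x, Rps6, Rps7, Rps18 and Rps25. In delta against wild-type there were 19 such genes and in delta against floxed 17. Among the genes at the extremes of these comparisons were 2 more dim or mid-level probe sets: Rpl19 10422852, with a mean log2 level of 3.07 and a delta minus wild-type log2 change of -0.17, and Rpl13 10415660, with a delta minus floxed log2 change of 0.18. Neither passed the threshold.

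Given the sex pattern of the arrays, the X-linked genes were looked at apart. Rps4x, Rpl10 and Rpl36a (11 probe sets) had a median floxed minus wild-type log2 change of 0.108, the same as all members, with 10 of 11 above 0 and 0 past the threshold. Rps4x 10606939 had 12.29, 12.37, 12.38 and 12.36 on the delta arrays, 12.46, 12.43 and 12.50 on the floxed arrays, and 12.30, 12.26 and 12.50 on the wild-type arrays. The median deviation of the 11 on delta 1, of male pattern, was -0.024, within the range of -0.026 to 0.024 of the other delta arrays. That comparison rests on 1 array, and an effect of sex on the ribosomal protein signal was not tested. Rpl10 10581505 had the largest delta minus wild-type log2 change of this list, 0.28 (SE 0.112, limma adjusted p = 0.531). Genes mutated in human Diamond-Blackfan anaemia, a failure of red cell production (9 genes measured, 24 probe sets, among them Rps19, Rps10 and Rpl5), had a median floxed minus wild-type log2 change of 0.105 and a median delta minus wild-type log2 change of 0.0094, with 0 called in either.

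The annotated start did not sort the changes in one direction. The brightest probe sets of the 9 genes with the tract at the annotated start had a median floxed minus wild-type log2 change of 0.0098, against 0.111 for the 34 genes with a window and no such tract. For delta minus wild-type the medians were 0.046 and 0.043. This split follows the annotated base alone: 18 of the 50 starts lay within 5 bases of such a tract, and 9 at it. The genes without the tract at the annotated start may thus include some that carry it.

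Neighbouring groups of genes were read in the same fit, all without a call. Fau, the small subunit protein made as a ubiquitin-like fusion, had 2 probe sets at floxed minus wild-type log2 changes of 0.067 and 0.085. Ribosomal-like paralogs (Rpl3l, Rpl7l1, Rpl10l, Rpl39l, Rps4l and Rps27l, 7 probe sets) had a median of -0.027, with 3 of 7 above 0. Translation factors whose mRNAs also carry a TOP tract (14 genes, 17 probe sets) had a median of 0.137. Of these, 17 of 17 were above 0, against 87.0% of the members and 42.5% of all probe sets, and 0 passed the threshold. The smallest p among the translation factors belonged to Eif3f (0.23, SE 0.074, limma adjusted p = 0.215) and Eif3e (0.26, SE 0.094, limma adjusted p = 0.258), both subunits of the initiation factor eIF3. Genes of mTOR control over these mRNAs (12 probe sets) had a median of 0.042, and Larp1, which binds TOP tracts, had 0.16 (SE 0.065, limma adjusted p = 0.329).

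Ribosome assembly and rRNA synthesis genes (43 genes, 51 probe sets) had a median floxed minus wild-type log2 change of 0.110, with 44 of 51 above 0, and a median delta minus wild-type log2 change of 0.085, with 37 above 0. Ncl, the nucleolar protein nucleolin, had 0.23 in floxed minus wild-type (SE 0.057, limma adjusted p = 0.11), and Taf1d, a factor of RNA polymerase I, had 0.32 in delta minus wild-type (SE 0.078, limma adjusted p = 0.217). Mitochondrial ribosomal proteins (77 genes, 85 probe sets), which build a separate ribosome, had most values below 0 in each comparison, with a median of -0.025 in floxed minus wild-type (31 above 0), -0.063 in delta minus wild-type (16 above 0) and -0.053 in delta minus floxed (16 above 0). Mrpl20 and Mrpl57 were lowest by p, with floxed minus wild-type log2 changes of -0.63 (SE 0.171, limma adjusted p = 0.132) and -0.23 (SE 0.074, limma adjusted p = 0.218). Of all probe sets, 42.5% were above 0 in floxed minus wild-type, 43.9% in delta minus wild-type and 51.8% in delta minus floxed.

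The low position of wild-type 2 was shared by some of these lists. Its median deviation was -0.151 for the TOP translation factors and -0.141 for the assembly genes, against -0.167 for the ribosomal proteins, -0.051 for the mitochondrial ribosomal proteins and 0.033 for B cell identity genes. The median over all probe sets on that array was 0.010. The T cell and erythroid lists were at 0.026 and -0.164 on wild-type 2. On wild-type 1 and 3 the T cell list was at -0.164 and -0.037, and the erythroid list at -0.252 and -0.203. The part of other cells or of RNA quality in the low ribosomal protein signal of wild-type 2 was not tested.

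**Figure D5:**
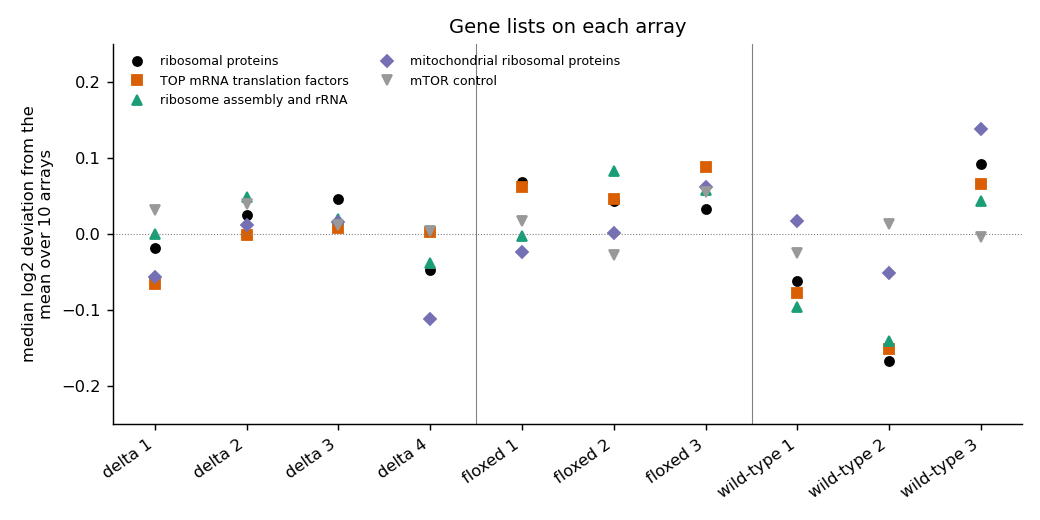
Median log2 deviation from the mean over 10 arrays, on each array, for ribosomal proteins, translation factors with TOP mRNAs, ribosome assembly and rRNA genes, mitochondrial ribosomal proteins and genes of mTOR control. The first 3 lists sit together at -0.167 to -0.141 on wild-type 2, where the mTOR control genes sit at 0.013.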

How the data were processed

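Each array measured total RNA of sorted B220+CD22+ spleen cells. The deposited values are RMA intensities, which the authors computed per probe set, per the submitters' processing notes, and which lie on a linear scale. RMA corrects background, sets arrays to a common distribution and summarises probes, so a change shared by all RNA of a cell would not show. No RMA version was stated, and the probes' genome build was not given in the sources used here. Gene symbols came from the GEO platform annotation: of 34760 probe sets, 21640 carried 1 symbol, 1321 several and 11799 none. Log2 of the values was fitted with limma 3.58.1 in R 4.3.3 (lmFit, 1 mean per group over all 10 arrays, eBayes without trend or robust options, prior df 4.19, total df 11.2), with 2-sided tests and Benjamini-Hochberg adjustment over 21640 probe sets. Intervals are 95% confidence intervals of that fit, and the script was tested on simulated data. The number of arrays limits the precision.

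Named members were those past 0.05, the 5 largest and 5 smallest log2 changes in each comparison, the 5 with the largest SD, genes whose probe sets differed in sign, and examples from lists by role. Rpl7, Rpl22, Rpl24, Rps3, Rps4x, Rps9 and further probe sets given beside these were picked with their values in view. The members and lists were chosen with earlier results of these data known. Alternatives covered the normalization, the filter, the unit, the variance prior, array weights, the arrays in the fit, a replicate block, the sex pattern and leaving out each array.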

Additional observations from a re-analysis of the deposited data

Results flagged for a closer look

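Among 44 checks of the 4 delta arrays, 2 found an array far from the others by its gap, where chance flags about 1 in 20. The median deviation of the 17 probe sets of TOP translation factors was -0.0663 on delta 1, against -0.0011 to 0.0073 on the other delta arrays. The median deviation of the 9 B cell identity genes was -0.0585 on delta 3, against -0.0031 to 0.0059 on the other delta arrays. Neither gap was seen for the 185 ribosomal protein probe sets.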

How the results depend on the processing

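In floxed against wild-type, 2 ribosomal protein probe sets passed the threshold. The count was 0 with 1 probe set per gene, 0 with all probe sets of the table and 0 with the sex pattern as a covariate, 1 with dim probe sets removed and 1 with only the 2 groups compared in the fit. The fit with 1 probe set per gene kept the brightest of each gene and so held neither of the 2 called probe sets. With dim probe sets removed, Rps12 10475435 was absent. A probe set that was absent could not be called. It ran from 0 to 2 with each array left out, and was 0 without delta 2, delta 3, floxed 2, floxed 3, wild-type 1 or wild-type 2. Over all probe sets the count was 141, and 18, 2, 179 and 218 with all probe sets of the table, the sex pattern, dim probe sets removed and only 2 groups; it was 229 with arrays centred on their median and 238 with array weights, and 23 without wild-type 2. Rpsa 10385034 and Rps12 10475435 kept their direction in each fit that held them. The log2 change of Rpsa 10385034 was 0.23 with the sex pattern as a covariate. The cause of calls lost in fits that held the probe set was not tested. Under the sex pattern, the sex term is set by delta 1 against the other delta arrays alone, so counts and changes from that fit rest on 1 array. In both comparisons with delta the count of members was 0 in each fit.

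The median log2 change of the members outside the fits that left out an array was 0.083 to 0.145 in floxed against wild-type, 0.042 to 0.068 in delta against wild-type and -0.076 to -0.033 in delta against floxed. With an array left out it was 0.049 to 0.161, -0.011 to 0.111 and -0.074 to -0.033. Under the sex pattern, whose term rests on delta 1 alone, the floxed minus wild-type change of Rps13 10565434 was -0.70 and its delta minus floxed change 0.30. Those of Rps18 10411393 were 0.32 and -0.15. Without wild-type 3, Rps13 10565434 and Rps18 10411393 had -0.022 and 0.064 in floxed against wild-type, and Rpl38 10509560 had -0.012 in delta against wild-type; the other end of their ranges, without wild-type 1, was 0.66, -0.35 and 0.83. The replicate numbers did not pair the arrays: deviations of arrays with the same number correlated at -0.083 to 0.119. With the replicate block the count of members stayed at 2 and that over all probe sets was 211; delta 4 has no partner and drops out of that fit's contrasts.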
